A study of Rattus norvegicus with 43 samples.

Results

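Cytochrome P450 enzymes of families 1 to 4 and the conjugation enzymes that work beside them were examined in rat foreskin after exposure in utero to dibutyl phthalate (DBP). Members were the probes of the Illumina RatRef-12 beadchip whose gene symbol named a Cyp1 to Cyp4, Gst, Mgst, Ugt, Sult, Ephx or Ces gene, Nqo1, Nqo2, Por, Ahr, Ahrr or Tiparp. This gave 118 probes of 22523, for 111 genes, and no probe named Tiparp. All 118 were matched to the RefSeq gene table by gene ID. Expression was measured on 43 arrays, 1 per litter, each carrying RNA pooled from 2 foreskins of that litter. The dams were Sprague Dawley rats given corn oil or DBP by mouth on each of gestational days 16 to 20. Pups were taken on gestational day 20 (GD20), the last day of dosing, or on postnatal day 5 (PND5), after it had ended. At GD20 there were 2 separate studies. In the first, 5 litters received DBP at 500 mg/kg/day (DBP500), with 6 corn oil controls. In the second, 5 litters received 100 mg/kg/day (DBP100), with 6 corn oil controls of their own. The PND5 arrays covered 7 litters given corn oil, 7 given DBP100 and 7 given DBP500. No group carried another agent or allele by the labels.

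DBP is a plasticizer that lowers androgen action in the male rat fetus. Esterases, carboxylesterases (Ces) among them, cut it to its monoester, which is then oxidized and coupled to glucuronic acid for excretion. Cytochromes P450 put oxygen on fats, steroids and foreign compounds, taking electrons from the reductase Por. Epoxide hydrolases (Ephx) and quinone reductases (Nqo) take up the reactive products. Transferases then attach glutathione (Gst, Mgst), glucuronic acid (Ugt) or sulfate (Sult). The aryl hydrocarbon receptor Ahr switches on Cyp1a1, Cyp1b1 and Nqo1, and its repressor Ahrr is itself one of its targets. Cyp4 enzymes hydroxylate the end of fatty acid chains, and in rat liver Cyp4a1 is a standard target of the receptor PPAR-alpha.

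Of the 118 member probes, 63 (62 genes) were detected on at least 5 arrays and were tested, 53.4% against 60.3% of all probes. A probe counted as detected on an array at a detection p under 0.05. Of the members 30 were detected on every array and 30 on none, and 25 more on fewer than 5 arrays. The number of members detected per array lay between 42 and 60. Of the glutathione transferase probes 19 of 25 were tested, as were 5 of 6 Ephx and Nqo probes and 3 of 3 for Por, Ahr and Ahrr. Of the P450 probes 1 of 5 Cyp3 (Cyp3a9), 5 of 15 Cyp4 and 13 of 28 Cyp2 probes were tested. Cyp2c11, Cyp2e1 and Cyp3a18 were detected on no array. All levels are log2 normalized intensities and are compared only within a probe. Probe sequences were not used here, so hybridization between close relatives (the Cyp2b, Cyp4a, Gsta, Gstm, Ugt1a and Ces1 genes) was not tested.

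The tissue label was checked against markers. Of 10 keratinocyte markers 8 were detected on every array, as were 9 of 9 fibroblast markers, 4 of 8 skeletal muscle markers and 0 of 7 liver markers. Of the liver markers 2, Apoa2 and Tat, were detected on no array, and the others on some arrays. Between 44.5% and 53.6% of all probes were detected per array, and 0 pairs of arrays held identical values. The highest signal of an array was 15335 to 29459 at PND5, against 40826 to 55729 at GD20. Within PND5 it was 15335 to 17753 on replicates 1 to 4 and 20110 to 29459 on replicates 5 to 7, so the PND5 arrays fell into 2 sets. Age and array set cannot be told apart.

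Promoters were read from the RefSeq promoter table (GRCr8), which covers 250 bases before and 50 after a gene's start and held 104 promoters for 98 of the 111 member genes. The core GCGTG, which the Ahr dimer recognizes, and TGACNNNGC, the core of the antioxidant element, were searched on both strands. GCGTG was present in 39.7% of the 58 promoters of tested members, in 26.9% of the promoters of all members and in 29.7% of all 33469 promoters in the table. TGACNNNGC was present in 13.8% of the promoters of tested members, 12.5% of those of all members and 12.1% of all promoters. The shares among promoters of all tested genes were not computed. The tested members' shares therefore have no background filtered for detection in the same way, and no excess is read from them. The promoters shown are those of Cyp1b1 and Gsta4, which changed with DBP, of Ahrr, the feedback repressor of Ahr, and of Cyp4b1, the Cyp4 member with the largest change with age. Other members called with DBP are not shown. Among them Cyp2b21, Cyp2f4 and Ahr had 0 matches to GCGTG, and Cyp2r1 had 1 in each of its windows. Mgst2 had no promoter in the table. Each is given 5′ to 3′ on the gene's own strand in lower case. Capitals mark GCGTG or its complement CACGC in Cyp1b1, Gsta4 and Ahrr and TGACNNNGC in Cyp4b1.
Cyp1b1: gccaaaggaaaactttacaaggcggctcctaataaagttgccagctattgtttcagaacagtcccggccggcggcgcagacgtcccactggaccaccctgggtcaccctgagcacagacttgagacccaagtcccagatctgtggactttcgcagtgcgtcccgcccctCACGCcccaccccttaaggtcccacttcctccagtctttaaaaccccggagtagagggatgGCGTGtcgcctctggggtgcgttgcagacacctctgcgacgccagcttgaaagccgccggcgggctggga
Gsta4: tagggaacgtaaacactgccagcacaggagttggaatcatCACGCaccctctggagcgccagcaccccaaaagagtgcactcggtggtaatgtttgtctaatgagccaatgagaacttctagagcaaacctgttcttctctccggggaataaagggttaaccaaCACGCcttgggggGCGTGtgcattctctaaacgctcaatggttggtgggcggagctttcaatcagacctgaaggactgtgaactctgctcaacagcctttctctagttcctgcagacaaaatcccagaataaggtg
Ahrr: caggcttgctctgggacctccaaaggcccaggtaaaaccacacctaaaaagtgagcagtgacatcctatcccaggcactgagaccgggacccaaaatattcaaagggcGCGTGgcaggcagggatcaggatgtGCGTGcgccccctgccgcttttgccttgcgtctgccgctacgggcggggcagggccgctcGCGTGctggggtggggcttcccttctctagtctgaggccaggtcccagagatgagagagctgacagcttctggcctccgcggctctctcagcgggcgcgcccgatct
Cyp4b1: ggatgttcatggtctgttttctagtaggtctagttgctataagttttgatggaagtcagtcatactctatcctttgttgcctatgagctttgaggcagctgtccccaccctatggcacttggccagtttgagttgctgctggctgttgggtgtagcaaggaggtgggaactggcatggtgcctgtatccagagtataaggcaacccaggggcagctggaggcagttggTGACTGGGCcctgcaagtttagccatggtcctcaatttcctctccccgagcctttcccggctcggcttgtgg
The Cyp1b1 window is chr6:21094315-21094614 (plus strand), and it holds 2 matches to GCGTG. The Gsta4 window is chr8:87947015-87947314 (plus strand), and the Ahrr window is chr1:30821969-30822268 (plus strand); each holds 3. The Cyp4b1 window is chr5:134393067-134393366 (minus strand), with 1 match to TGACNNNGC and 0 to GCGTG. In these 4 windows the 2 motifs did not overlap. Matches are letters in a window, and no measurement of binding was made.

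Cyp1b1, which hydroxylates oestradiol and polycyclic aromatic hydrocarbons, was the only member that changed at GD20 with DBP500, and it fell. Its levels in the 5 DBP500 litters were 6.95, 6.39, 6.51, 6.48 and 6.16, against 7.09 to 7.61 in the 6 controls of that study, with a median of 7.42. All 5 exposed litters lay below all 6 controls, the nearest pair being 6.95 and 7.09. The means were 6.50 ± 0.286 with DBP500 (SD, n = 5) and 7.40 ± 0.227 in controls (SD, n = 6). The difference was -0.90 ± 0.164 on the log2 scale (SE), a 1.86-fold lower level, with a limma adjusted p of 0.00408. The two-sided exact permutation test of this value gave p = 0.00216, the smallest that 462 regroupings allow. That p restates the separation of the groups and is not further support, and it is not adjusted for the number of members. The limma call held in 11 of 11 fits that left out 1 array. Among all probes tested 0.302% were called in this comparison, and among the members 1 of 63. With array medians aligned in place of quantile normalization the difference was -0.99 and its adjusted p 0.0555. In pooled tissue, fewer cells of a type and less RNA per cell cannot be told apart.

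**Figure D1:**
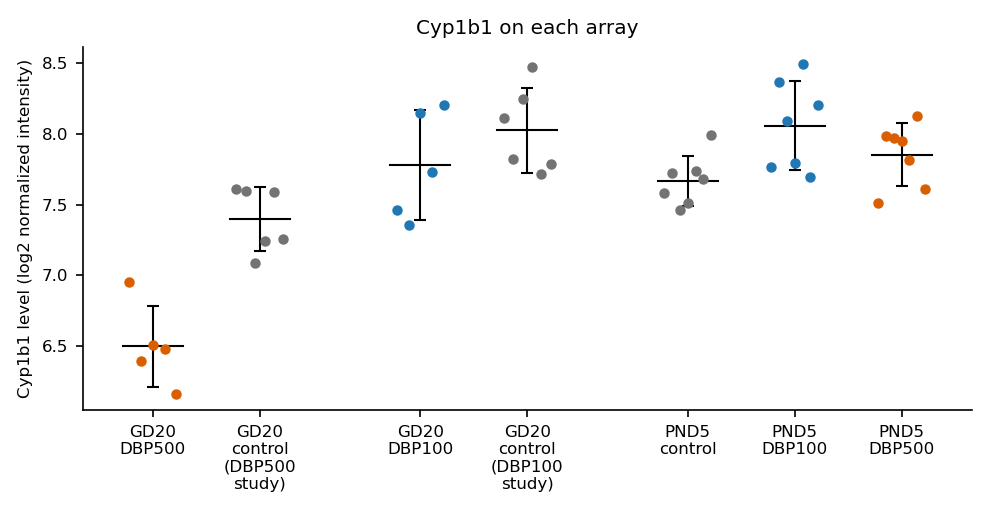
Cyp1b1 level (log2 normalized intensity, vertical axis) on each of the 43 arrays by group (horizontal axis); each point is 1 litter (orange DBP500, blue DBP100, grey control), the horizontal bars are group means and the vertical bars the SD. The GD20 DBP500 litters sit between 6.16 and 6.95, below the 7.09 to 7.61 of their controls, while the PND5 groups overlap.

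The Cyp1b1 difference with DBP500 was not the same at GD20, the last day of dosing, and at PND5, after dosing had ended. Age, time since dosing and array set cannot be told apart here. At PND5 Cyp1b1 levels ran from 7.51 to 8.13 with DBP500 (median 7.95) and from 7.46 to 7.99 in controls (median 7.68). These groups overlapped. The PND5 difference was 0.18, and the PND5 difference minus the GD20 difference was 1.08 ± 0.219 (SE), with an adjusted p of 0.0241. It was the only member called of 63 in that interaction, in which 0.412% of all probes were called, and it passed in 25 of 25 fits that left out 1 array. With array medians aligned it was 1.17, with an adjusted p of 0.177. At GD20 with DBP100, Cyp1b1 levels were 7.46, 7.36, 8.15, 7.73 and 8.21, against 7.72 to 8.47 in that study's controls (median 7.97). Those groups overlapped, and the difference of -0.25 had an adjusted p of 0.639. The GD20 effect of DBP500 minus that of DBP100 was -0.65, with a 95% interval from -1.12 to -0.18 and an adjusted p of 0.273. The 2 control groups at GD20 differed as well: Cyp1b1 was 0.63 lower in the controls of the DBP500 study than in those of the DBP100 study (adjusted p = 0.00338).

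Cell type markers moved in the same GD20 DBP500 litters. All 8 tested skeletal muscle markers were lower, with a median of -0.74, and none passed. Their mean level per array was 5.77 to 7.17 with DBP500 and 5.96 to 8.29 in controls. Of 6 smooth muscle markers 5 were lower, and Tagln, an actin-binding protein of smooth muscle, fell by 0.70. The smooth muscle mean was 7.26 to 7.36 with DBP500 and 7.41 to 7.72 in controls, without overlap. The fibroblast mean was 12.82 to 12.98 with DBP500 and 12.65 to 12.99 in controls, with 4 of 9 markers higher, and Pdgfra, a receptor of fibroblast precursors, was the fibroblast marker that rose (0.85). Of 5 tested hair follicle and sebaceous gland markers 3 were higher, and the lipid enzymes Scd (1.003, adjusted p = 0.0137) and Elovl3 (1.18, adjusted p = 0.0401) rose. The mean of that list was 8.15 to 8.40 with DBP500 and 7.71 to 8.04 in controls, without overlap. Of 10 keratinocyte markers 8 were higher and none passed, with a mean of 10.70 to 11.08 with DBP500 and 10.58 to 10.78 in controls. In the PND5 minus GD20 effect of DBP500, Pdgfra (-1.07, adjusted p = 0.0253) and Scd (-1.14, adjusted p = 0.0469) passed beside Cyp1b1. The part of these cell types in the Cyp1b1 differences was not tested.

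Ahr, Ahrr, Cyp1a1 and Por did not pass with DBP500 at GD20. Ahrr was at 7.60, 8.02, 8.26, 7.10 and 7.56 with DBP500, and its 6 controls ran from 6.50 to 7.41 with a median of 7.16. Of the exposed litters 4 lay above every control, and the difference of 0.64 had an adjusted p of 0.516. Ahr differed by 0.23 (adjusted p = 0.964), with 8.67 to 9.27 in exposed litters inside the 8.20 to 9.35 of controls. Cyp1a1, the other tested Cyp1 member, was detected in 0 of 5 exposed litters and 1 of 6 controls, so it has no fold here. Por differed by -0.08 (adjusted p = 0.986). Next after Cyp1b1 by p came Mgst1, Gstk1, Ahrr and Gsto1. Mgst1, the microsomal glutathione transferase, was 0.44 higher, and all 5 exposed litters lay above all controls (adjusted p = 0.16). Gstk1, the mitochondrial and peroxisomal transferase, differed by -0.31, with all 5 exposed litters below all controls (adjusted p = 0.307), and Gsto1 differed by -0.26 (adjusted p = 0.569). Over all 63 members the median absolute difference was 0.16, against 0.11 over all probes.

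With DBP100 at GD20 the member that passed was Cyp2r1, a vitamin D 25-hydroxylase. Its levels were 4.91, 4.92, 5.45, 5.66 and 5.33 with DBP100, and 5.62 to 6.38 in the 6 controls of that study (median 6.13). It was detected in 1 of 5 exposed litters and 6 of 6 controls, and 4 of the 5 exposed litters lay below every control. The difference was -0.81 ± 0.197 (SE), 1.76-fold lower, with an adjusted p of 0.0395. Of all probes 0.589% were called in this comparison, and 1 of 63 members. The call rested on single litters. It held in 4 of 11 fits that left out 1 array, and adjusted p lay between 0.0615 and 0.226 without control replicate 2, 3, 4 or 5 or without DBP100 replicate 1, 2 or 3. Among markers, 8 of 10 keratinocyte genes were lower with DBP100 and Dsc3, a desmosome cadherin, fell by 1.52. The keratinocyte mean was 10.61 to 11.22 with DBP100 and 11.02 to 11.57 in controls. The part of these cells in the Cyp2r1 difference was not tested.

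Ahr was split within the DBP100 litters. Its levels were 8.61, 8.69, 8.42, 9.94 and 10.02 with DBP100, against 9.50 to 10.44 in controls (median 9.69). Replicates 1 to 3 lay below every control, and replicates 4 and 5 lay among the controls. The difference was -0.74 (adjusted p = 0.158), and it passed without replicate 4 (-0.94, adjusted p = 0.0228) or without replicate 5 (-0.96, adjusted p = 0.0227). Without either of those litters the count over all probes also moved, to 466 without replicate 4 and 366 without replicate 5, against 80 with both. Gstm7, a mu-class glutathione transferase, was 0.54 higher (adjusted p = 0.26), Cyp4b1 was 0.52 higher (adjusted p = 0.305), and Ugt1a6, a phenol glucuronosyltransferase, was detected in 0 of 5 exposed litters and 1 of 6 controls, so it has no fold here (adjusted p = 0.406). Ahrr differed by 0.43 (adjusted p = 0.564) and Por by 0.10 (adjusted p = 0.775).

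At PND5 with DBP500, 5 of 63 members passed, 7.94% against the 3.67% of all probes called there (1.49% higher and 2.18% lower). Mgst2, Cyp2b21, Cyp2f4 and Gsta4 rose and Ahr fell. The 5 fitted differences were 0.49 to 0.72 in absolute size, and their groups overlapped except for Cyp2b21.

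Both glutathione-linked enzymes that passed rose. Mgst2, a membrane enzyme that also makes leukotriene C4, was at 10.72 to 11.45 with DBP500 (median 11.21) and 10.10 to 10.93 in controls (median 10.24). Of the 7 exposed litters 5 lay above every control. The difference was 0.71 ± 0.161 (SE), 1.64-fold higher, with an adjusted p of 0.0112. Gsta4, which conjugates the lipid peroxidation product 4-hydroxynonenal, was at 7.54 to 8.23 with DBP500 (median 7.81) and 6.96 to 7.90 in controls (median 7.16). Its difference was 0.49 ± 0.142 (SE), with an adjusted p of 0.0422, and 2 exposed litters lay above every control. Gsta4 differed by 0.27 within replicates 1 to 4 and by 0.78 within replicates 5 to 7, and it passed in 6 of 14 fits that left out 1 array. The fits that lost it (adjusted p 0.0546 to 0.12) left out control replicate 2, 3, 5, 6 or 7 or DBP500 replicate 3, 4 or 6. Mgst2 passed in 14 of 14 and differed by 0.75 and 0.67 within the 2 sets.

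Of 13 Cyp2 probes 2 passed. Cyp2b21, of the Cyp2b family that oxidizes drugs and steroids, was at 8.40 to 8.94 with DBP500 (median 8.63) and 7.48 to 8.37 in controls (median 8.19). All 7 exposed litters lay above all 7 controls, by a margin that at its narrowest separated 8.40 from 8.37. The difference was 0.61 ± 0.145 (SE), 1.53-fold higher, with an adjusted p of 0.0148, and it passed in 14 of 14 fits that left out 1 array. It was 0.90 within replicates 1 to 4 and 0.23 within replicates 5 to 7. Cyp2f4, which in rat lung oxidizes naphthalene, was at 4.89 to 6.06 with DBP500 (median 5.47) and 4.65 to 5.15 in controls (median 4.94). It was detected in 4 of 7 exposed litters and 0 of 7 controls, and 6 of 7 exposed litters lay above every control. Set against the detection limit of the controls, Cyp2f4 was at least 1.10-fold higher, and the fitted difference of 0.62 had an adjusted p of 0.0258. It passed in 10 of 14 fits that left out 1 array and lost the call without control replicate 4 or DBP500 replicate 3, 4 or 5 (adjusted p 0.0571 to 0.0802).

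Ahr fell at PND5 with DBP500. Its levels were 9.22 to 9.97 in exposed litters (median 9.54) and 9.44 to 10.74 in controls (median 10.25). Control replicate 1, at 9.44, lay among the exposed litters, and the other 6 lay above all of them. The difference was -0.72 ± 0.215 (SE), 1.65-fold lower, with an adjusted p of 0.0467. The call was near the threshold: it was kept without control replicate 1 or DBP500 replicate 6 or 7 and lost without any other array (adjusted p 0.0573 to 0.114). Ahrr differed by -0.38 (adjusted p = 0.385), Cyp1a1 by -0.11 (adjusted p = 0.832), and Por by -0.04 (adjusted p = 0.856). With the replicate number as a block, 3 of the 5 members passed, and Gsta4 (adjusted p = 0.0946) and Ahr (0.0519) did not. With medians aligned in place of quantile normalization 0 passed. Calls over all probes then fell from 202 higher and 296 lower to 11 higher and 23 lower. Within either set of replicates alone 0 members passed.

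**Figure D2:**
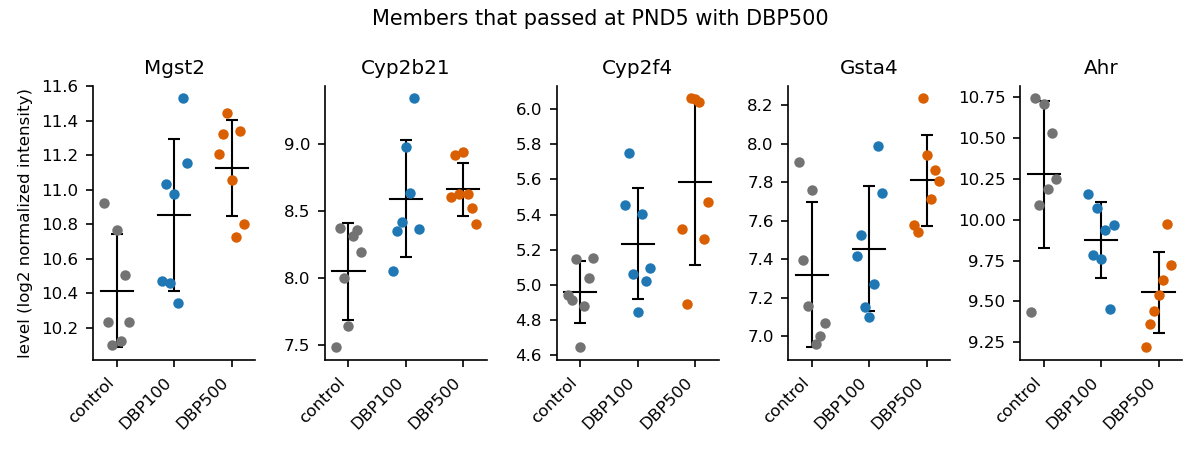
Levels (log2 normalized intensity, vertical axes) of the 5 members that passed at PND5 with DBP500, in control, DBP100 and DBP500 litters (7 each); each point is 1 litter, with group means and SD. DBP500 litters and controls overlap in Mgst2, Cyp2f4, Gsta4 and Ahr, and are apart in Cyp2b21 (8.40 to 8.94 against 7.48 to 8.37).

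The lower dose gave 0 called members at PND5 by limma, where 0.081% of all probes were called. The members of smallest p were Cyp2b21, Mgst2, Sult5a1, Cyp1b1 and Ugt8. Cyp2b21 was 0.54 higher with DBP100 (8.05 to 9.34, median 8.42) than in controls, with an adjusted p of 0.107, and it passed (0.63, adjusted p = 0.0362) only when DBP100 replicate 1 was left out. Mgst2 was 0.44 higher (10.34 to 11.53, median 10.98; adjusted p = 0.274). Cyp1b1 was 0.39 higher, and 4 of 7 exposed litters (7.69 to 8.50) lay above every control (adjusted p = 0.289). Sult5a1, a sulfotransferase, was 0.42 higher (adjusted p = 0.288), and Ugt8, which makes galactocerebroside, was 0.63 higher (adjusted p = 0.306). Of the other members called with DBP500, Gsta4 differed by 0.14 with DBP100 (adjusted p = 0.798) and Ahr by -0.40 (adjusted p = 0.514). Cyp2f4 was detected in 3 of 7 DBP100 litters and 0 of 7 controls, so it has no fold there (adjusted p = 0.577). Both dose comparisons used the same 7 controls.

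The doses were also compared directly at PND5, with 0 members called by limma and 0.0516% of all probes called. For Gsta4 the DBP500 litters were 0.35 above the DBP100 litters (95% interval 0.07 to 0.64, adjusted p = 0.435). For Mgst2 the difference was 0.27 (interval -0.05 to 0.60), for Cyp2b21 0.07 (-0.22 to 0.37), for Cyp2f4 0.35 (0.02 to 0.68) and for Ahr -0.32 (-0.76 to 0.11). Gstt2, a theta-class transferase, differed by -0.34, Cyp2d4 by 0.38 and Gsta2 by 0.69, with adjusted p of 0.433, 0.454 and 0.472. The intervals of Mgst2, Cyp2b21 and Ahr hold 0 and also differences as large as 0.60, 0.37 and -0.76.

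**Figure D3:**
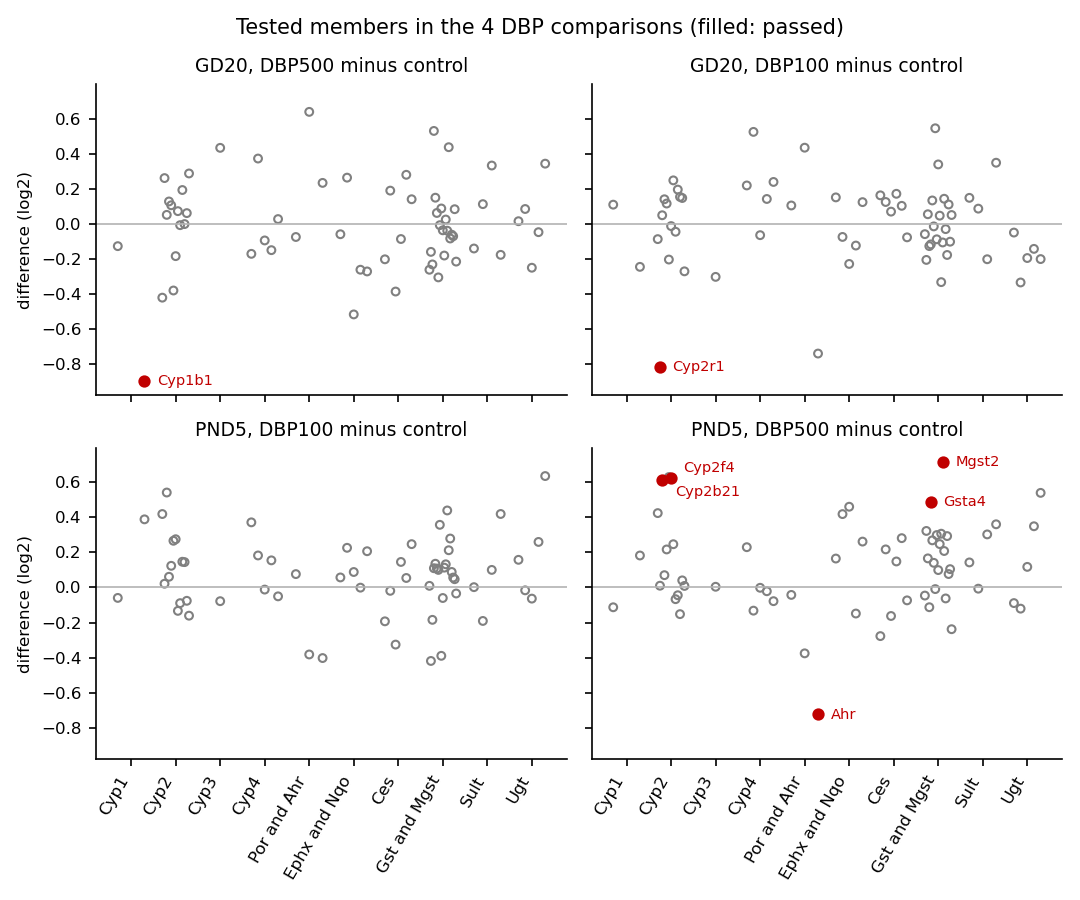
Difference from control (log2, vertical axes) of the 63 tested member probes in the 4 DBP comparisons, by enzyme group (horizontal axes); filled points passed at an adjusted p under 0.05 and are named. A single member passes in each GD20 panel (Cyp1b1, Cyp2r1), 0 at PND5 with DBP100 and 5 at PND5 with DBP500.

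At PND5 with DBP500 40 of 63 members were higher than in controls and 23 lower, with a median difference of 0.12 against 0.02 over all probes. Among the 19 glutathione transferase probes 14 were higher and 2 passed, and among 13 Cyp2 probes 10 were higher and 2 passed. None of the 6 Ces, 5 Cyp4, 5 Ephx and Nqo, 4 Sult and 5 Ugt probes passed. With DBP100 at PND5 41 members were higher and 22 lower (median 0.09, against -2.3e-05 over all probes). Both doses were set against the same 7 controls, so these splits are not independent. The share of all probes that were higher is not given here, and nothing particular to the members is read from the splits. At GD20 the split was even, with 29 higher and 34 lower with DBP500 and 32 higher and 31 lower with DBP100. Fibroblast markers were lower at PND5 with DBP500 in 8 of 9 cases and none passed; the median over arrays of their mean level was 13.09, against 13.26 in controls. The erythroid marker Hbb rose by 0.70 in the same litters. The part of these cells in the members' differences was not tested.

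No Cyp4 member changed with DBP in any of the 4 comparisons with controls by limma. Cyp4b1, a fatty acid hydroxylase of lung and skin, came nearest at GD20. Its levels were 6.65, 6.83, 7.14, 6.44 and 6.52 with DBP500 and 6.18 to 6.64 in the controls of that study (median 6.30), a difference of 0.37 (adjusted p = 0.791). With DBP100 they were 5.71, 6.47, 6.19, 6.36 and 5.67, against 5.32 to 5.85 in controls (median 5.52), a difference of 0.52 (adjusted p = 0.305). In each study 3 exposed litters lay above every control, and the others overlapped. The controls of the 2 studies differed by more than this, with Cyp4b1 0.79 higher in those of the DBP500 study (adjusted p = 0.00496). At PND5 Cyp4b1 differed by 0.18 with DBP100 (adjusted p = 0.798) and by -0.13 with DBP500 (adjusted p = 0.775).

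None of the other tested Cyp4 members passed either. Cyp4a1 has 2 probes, and the values given are those of the tested probe, detected on all 43 arrays. The other was detected on 1 array and was not tested. The tested Cyp4a1 probe differed from controls by between -0.09 and 0.00 in the 4 comparisons. Its standard deviations within groups were 0.0834 to 0.217. Cyp4a3 was detected in at most 3 litters of any group. Cyp4f5 differed by -0.17 to 0.37 and Cyp4f6, of the subfamily that hydroxylates leukotrienes, by -0.08 to 0.24. Among PND5 litters with DBP100 Cyp4f6 ran from 6.20 to 8.56 (SD 0.80), against 7.01 to 7.39 in controls. In all 10 Cyp4 probes were not tested, Cyp4a2, Cyp4a8 and Cyp4v3 among them, each detected on 0 arrays.

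**Figure D4:**
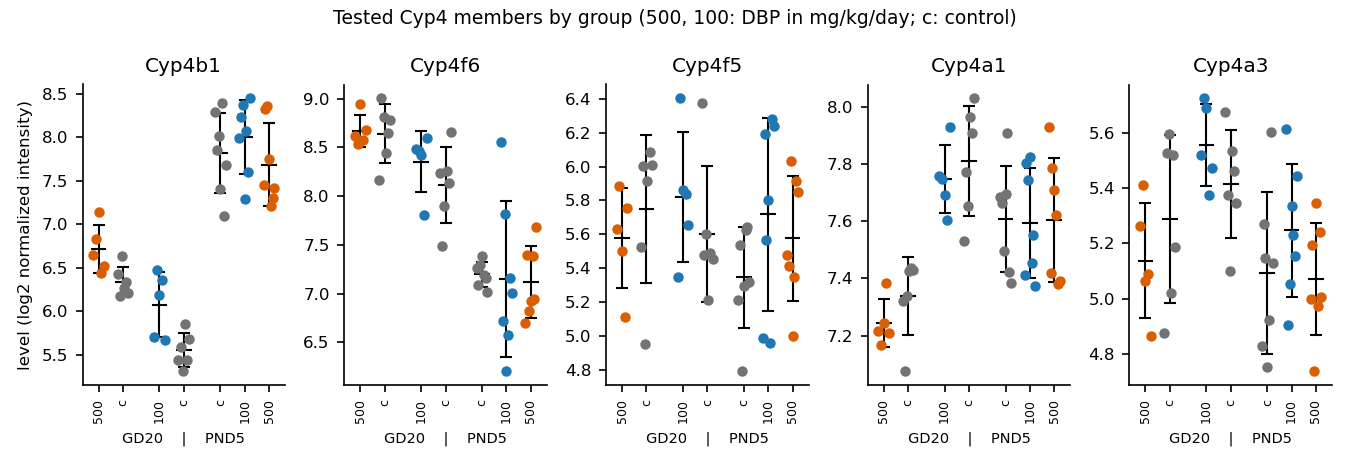
Levels (log2 normalized intensity, vertical axes) of the 5 tested Cyp4 members in the 7 groups; each point is 1 litter, with group means and SD. Cyp4b1 is higher at PND5 (7.10 to 8.45) than at GD20 (5.32 to 7.14), Cyp4f6 is lower at PND5 in controls, and no Cyp4 member separates exposed litters from their controls.

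Differences between effects were tested as well. The GD20 effect of DBP500 minus that of DBP100 called 0 members by limma and 0.133% of all probes. The members of smallest p were Cyp2r1 (1.07, adjusted p = 0.116), Ahr (0.97, 0.269), Cyp1b1, Sult5a1 (-0.52, 0.444) and Gstm2 (0.66, 0.464). Without DBP100 replicate 4 Cyp2r1 passed (adjusted p = 0.032). The PND5 minus GD20 effect of DBP500, in which Cyp1b1 passed, gave Gstk1 0.45 (adjusted p = 0.121), Mgst2 0.75 (0.141) and Ahrr -1.01 (0.161). Cyp2f4 had an adjusted p of 0.121 there and has no fold, being detected in 0 of 7 PND5 controls. For DBP100 the same contrast called 0 members and 0% of all probes by limma. Its smallest p values belonged to Cyp2r1 (0.84), Cyp1b1 (0.63), Ahrr (-0.82), Ugt8 (0.84) and Cyp2b21, which was detected on no GD20 array and has no fold there, with adjusted p between 0.33 and 0.514. Each age contrast also holds the differences between array sets and in time since dosing.

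Other genes of these pathways were read from 9 lists. With either dose at GD20, and with DBP100 at PND5, 0 of their tested genes passed by limma. Of 14 tested Nrf2 pathway genes 1, the malic enzyme Me1, passed in the GD20 effect of DBP500 minus that of DBP100 (0.90, adjusted p = 0.044), where 0.133% of all probes were called. With DBP500 at PND5 5 passed, where 3.67% of all probes were called, and nothing particular to the lists is read from that count. Abcc1, which exports glutathione conjugates, fell by 0.88 (adjusted p = 0.00313) and was the only one of 7 drug transporters to pass. Among 10 xenobiotic nuclear receptors Nr1h3, the liver X receptor alpha, rose by 0.47 and its partner Rxrb fell by 0.31. Of 15 other oxidation enzymes Cbr1, a carbonyl reductase, rose by 0.35. Of 19 PPAR targets Cd36, a fatty acid importer, fell by 0.50. None of 15 genes for electron and haem supply, 14 of the Nrf2 pathway, 4 partners and targets of Ahr, 8 of conjugation cofactors and 13 other P450 genes passed there.

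More members differed with age than with DBP. In controls 42 of 63 members (66.7%) differed between PND5 and GD20, 22 higher and 20 lower at PND5. Of all probes 61.6% were called, 26.7% higher and 34.9% lower, so the members' share was near the background. The median absolute difference of the members was 0.50, against 0.39 for all probes. Largest among P450 enzymes was Cyp3a9, of the Cyp3a family that oxidizes drugs and steroids, at 10.90 to 11.62 at PND5 (median 11.34) and 6.10 to 8.44 in the 12 GD20 controls. It was 4.24 ± 0.212 (SE) higher, 18.9-fold, with an adjusted p of 8.95e-21, and the ages did not overlap. Cyp2b21 was detected in 7 of 7 PND5 controls and 0 of 12 GD20 controls. Its means were 8.05 ± 0.361 at PND5 (SD, n = 7) and 4.88 ± 0.208 at GD20 (SD, n = 12), at least 5.65-fold higher against the detection limit (adjusted p = 7.54e-24). It was the only member probe detected on every PND5 array and on none of the 22 GD20 arrays. Cyp2b12 rose by 1.19 and Cyp4b1 by 1.87.

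Conjugating and hydrolysing enzymes were among the largest rises at PND5. Gsta5, an alpha-class glutathione transferase, was 3.73 higher (8.33 to 10.28 at PND5, median 9.63; 4.69 to 6.47 at GD20). Sult2b1, which sulfates cholesterol in human and mouse epidermis, was 2.75 higher and Ephx3, an epoxide hydrolase of the epidermis in mouse, 2.67 higher. Another Sult2b1 probe was detected on 1 array and was not tested. Ephx3 was detected in 7 of 7 PND5 controls and 1 of 12 GD20 controls. Ces2g was 2.28 higher. Of the Ugt members, Ugt1a1 was at least 1.43-fold higher, detected in 5 of 7 PND5 and 0 of 12 GD20 controls, and Ugt1a7c was 1.28 higher. Nqo1, Ahrr and Ahr rose by 1.18, 1.17 and 0.96, and Cyp1a1 by 0.86 with 5 of 7 against 1 of 12 litters detecting it. Cyp1b1 differed by -0.04 (limma adjusted p = 0.792). The GD20 side averages 2 control groups that were apart in Ahrr, Ahr and Cyp1b1. Mean Ahrr was 7.61 at PND5, against 7.07 (DBP500 study) and 5.79 (DBP100 study) at GD20. Mean Ahr was 10.28 at PND5, against 8.75 and 9.88 in the same order. Mean Cyp1b1 was 7.67 at PND5 and lay between the GD20 groups, at 7.40 and 8.03.

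Most of the called glutathione transferases were lower at PND5. Of 19 probes 11 fell and 3 rose (Gsta5, Gsta2 and Mgst2). Over all probes 34.9% were called lower and 26.7% higher, and the family's share was not tested against these. The 11 hold Gstp1 on 2 probes, and Gstm3, detected in 1 of 7 PND5 and 3 of 12 GD20 controls. Gstp1, the pi-class enzyme of most non-liver tissues, fell by 1.17 and by 0.57 on its 2 tested probes. A further Gstp1 probe was detected on 2 arrays and was not tested. Gsta4 fell by 0.99. Its level with DBP500 at PND5 (mean 7.81) lay between that of PND5 controls (7.32) and that of GD20 controls (8.31). Of the other members called with DBP500 at PND5, Ahr (9.56) lay between PND5 controls (10.28) and the mean of all GD20 controls (9.31). The 2 GD20 control groups were apart in Ahr, at 8.75 (DBP500 study) and 9.88 (DBP100 study). The 9.56 lay above the former and below the latter. The means of Mgst2 (11.13), Cyp2b21 (8.67) and Cyp2f4 (5.58) lay above those of the controls of both ages. Largest among the falls were also Cyp2t1 (-1.54), Cyp4f6 (-1.18), Ces1d (-1.17), a lipase of the carboxylesterase family, and Sult1a1 (-0.91), the phenol sulfotransferase. Por differed by 0.17 (adjusted p = 0.054), and its sign turned with other scalings, at -0.35 with aligned medians (adjusted p = 0.0349) and -0.11 on the authors' values.

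**Figure D5:**
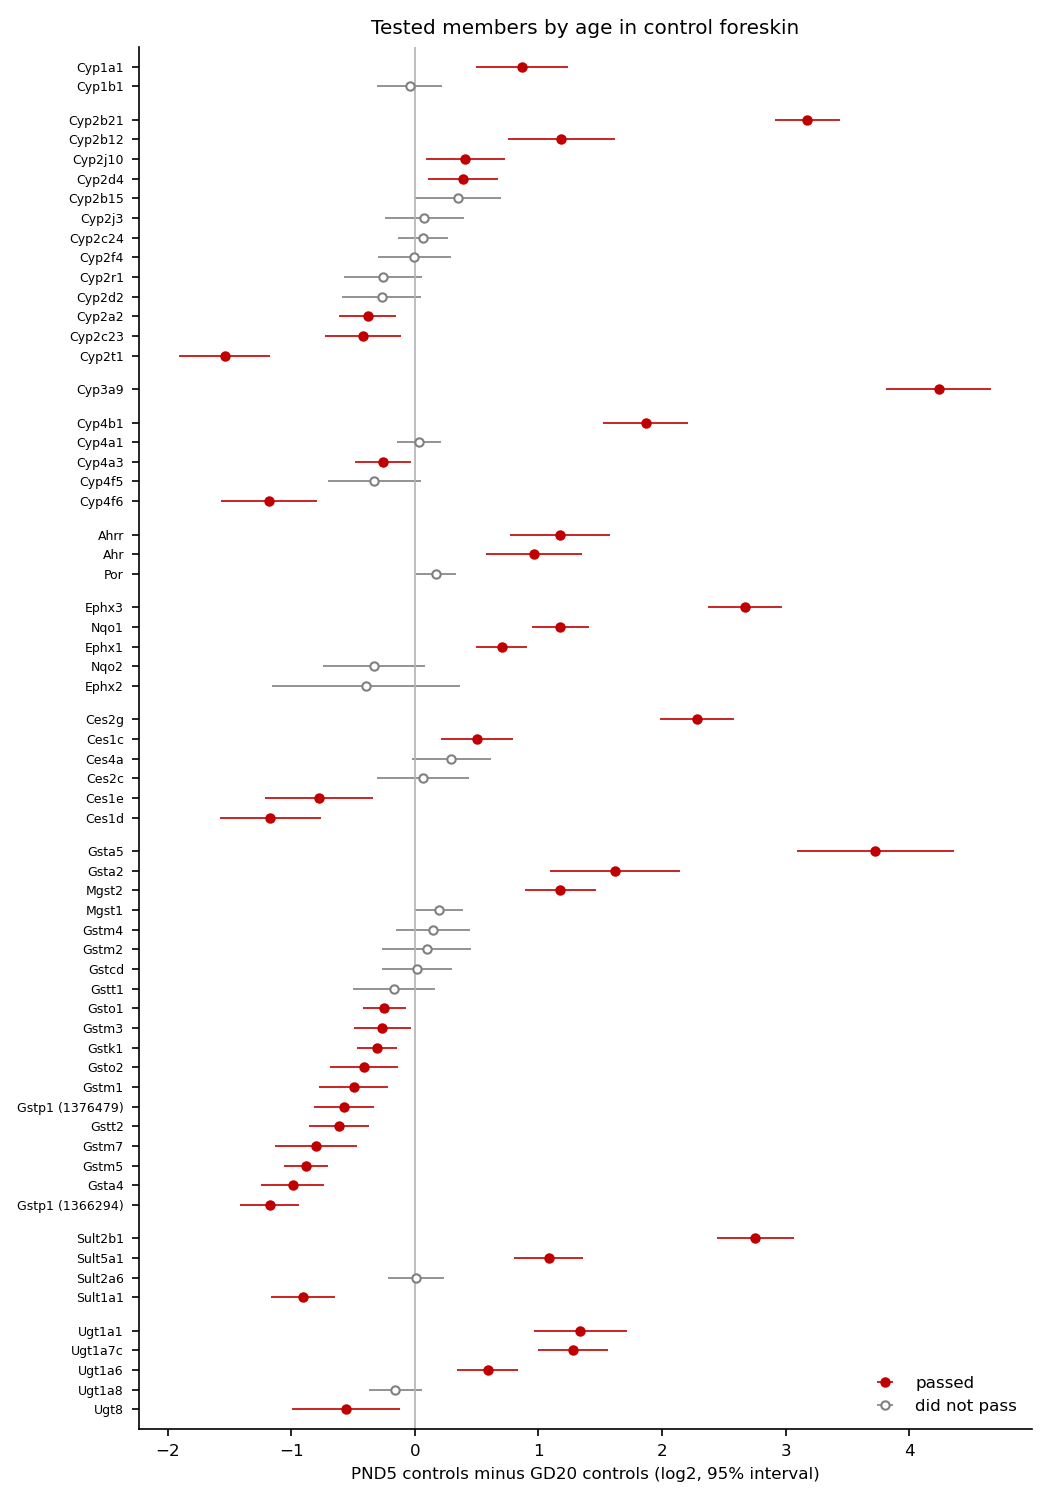
PND5 controls minus GD20 controls (log2, horizontal axis) for the 63 tested member probes, grouped by enzyme family down the page; points are model estimates and bars 95% intervals, with filled points passing at an adjusted p under 0.05. Cyp3a9 (4.24) and Gsta5 (3.73) lie far to the right and Cyp2t1 (-1.54) farthest to the left; Cyp2b21, Gsta2 and Ugt1a1 were detected in 0 of 12 GD20 controls, so their folds are lower bounds (at least 5.65-fold for Cyp2b21).

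Cell type markers moved with age too. Of 10 keratinocyte markers 8 rose, with a median of 1.74, and their mean level was 12.28 to 12.49 in PND5 controls, against 10.58 to 10.78 and 11.02 to 11.57 in the 2 GD20 control groups. All 8 skeletal muscle markers rose (median 3.70; 9.95 to 11.26 at PND5, against 5.45 to 8.95 at GD20), 4 of 5 adipocyte markers rose (median 1.87) and 3 of 3 erythroid markers fell (median -1.39). Of 9 fibroblast markers 6 rose (median 0.39). Their part in the members' age differences was not tested. The median of all probes was -0.28 in this comparison with aligned medians, against -0.09 here. Of all called probes 29% were higher with aligned medians, against 43.3% here, while the members' split was 22 higher and 20 lower in both.

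The controls of the 2 GD20 studies, both given corn oil alone, differed in 17 of 63 members (27%), 8 higher and 9 lower in the DBP500 study. Of all probes 22% were called, 10.3% higher and 11.7% lower. Higher in the DBP500 study's controls were Ahrr (1.28 ± 0.244, SE), Nqo2 (1.16), Cyp2t1 (0.97), Gsto2 (0.83), Cyp4b1 (0.79) and Gstm7 (0.74). Lower there were Ahr (-1.13 ± 0.232, SE), Cyp2c23 (-0.86), Cyp1b1 (-0.63), Cyp2r1 (-0.54) and Gstm4 (-0.52). Cyp2a2 was detected in 0 of 6 controls of the DBP500 study and 6 of 6 of the DBP100 study, and was at least 1.23-fold lower (adjusted p = 0.000501). Ahr was at 8.20 to 9.35 in the DBP500 study's controls and 9.50 to 10.44 in the DBP100 study's controls, and Ahrr at 6.50 to 7.41 and 5.47 to 6.06, without overlap in either gene. Cyp1b1, Cyp2r1, Ahr and Mgst2, each called in a DBP comparison, differed between these corn oil groups too, and each exposed group was set only against its own study's controls. Without 1 array in turn Cyp2r1 passed in 6 of 12 fits. The split of calls depended on scaling, with 15 members higher and 8 lower with aligned medians. On the authors' values, which were normalized within each study, 3 members were higher and 35 lower. The split over all probes moved likewise, to 2351 higher and 1090 lower with aligned medians and 318 and 7923 on the authors' values. Of the called members 65.2% and 7.89% were higher under these 2 scalings, against 68.3% and 3.86% of all called probes. The study and the set of arrays cannot be told apart.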

How the data were processed

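Foreskin RNA was measured on 43 Illumina RatRef-12 arrays. Probe signals were deposited as raw intensities on a linear scale, with a detection p-value for each probe and array, per the file headers; the software behind them is not given in the sources used here. The authors' processed intensities rank probes as the raw signals do and were quantile normalized within each of 3 sets of arrays, as a comparison of the deposited files showed; limma is named without a version, per the submitters' processing notes. Here signals were background corrected from the detection p-values and quantile normalized over all arrays (neqc, offset 16, limma 3.58.1, R 4.3.3) and taken to log2. The 13577 probes detected (p under 0.05) on at least 5 arrays were fitted with 1 mean for each of the 7 groups. limma's moderated test was two-sided, with Benjamini-Hochberg adjustment over all tested probes and a threshold of 0.05. Standard errors are from that fit, intervals are 95%, and array number limits the precision. Labels call replicates biological and pool within litters, so p-values measure spread between litters. A fold against a group that detected a probe on 0 arrays is a lower bound, set from each array's lowest detected signal. Named were every tested Cyp1 and Cyp4 probe, Por, Ahr and Ahrr, every member passing with DBP, the 5 of smallest p where fewer passed, and, between controls, the 6 largest rises and falls. The members and lists were chosen with earlier results of these data known. The scripts were tested on simulated data. Alternatives were other normalizations, background steps, filters, sample sets, blocks and leaving out each array. Figures were drawn with matplotlib 3.10.9.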

Additional observations from a re-analysis of the deposited data

Results flagged for a closer look

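The Cyp1b1 difference with DBP500 was not the same at GD20 and PND5 by a test of the difference itself, PND5 minus GD20 being 1.08. With array medians aligned it was not called. Age, time since dosing and array set cannot be told apart in it. Single litters stood apart from the rest of their group in 12 of 280 combinations of probe and group, over 40 probes, where chance gives about 1 in 20; these are log2 levels and none was left out. Among Cyp4 genes, Cyp4a1 was at 7.08 in GD20 control replicate 2 of the DBP500 study, the others being at 7.32 to 7.44. Cyp4f5 was at 6.38 in GD20 control replicate 1 of the DBP100 study (others 5.21 to 5.60), and Cyp4f6 at 7.81 in GD20 DBP100 replicate 4 (others 8.42 to 8.60). Among glutathione transferases, Gstm7 was at 4.86 in PND5 DBP500 replicate 2 (others 5.60 to 5.91) and Gstt2 at 8.91 in GD20 DBP500 replicate 4 (others 9.41 to 9.56). PND5 DBP100 replicate 6 was high in both Gstm2, at 9.42 (others 8.57 to 8.91), and a Gstp1 probe, at 10.41 (others 9.62 to 9.88). Gsta5 was at 4.72 in GD20 control replicate 1 of the DBP500 study (others 5.79 to 6.15), and Gsto2 at 5.15 in PND5 control replicate 3 (others 5.45 to 5.65). Sult2b1 was at 8.78 in PND5 control replicate 7 (others 9.90 to 10.20), Cyp2t1 at 10.46 in GD20 DBP500 replicate 2 (others 9.62 to 9.86) and Nqo2 at 6.55 in PND5 DBP500 replicate 7 (others 7.34 to 7.66).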

How the results depend on the processing

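Counts of called members depended on scaling. With array medians aligned, 0 members were called at GD20 with DBP500, 0 at PND5 with DBP500 and 0 in the DBP500 age contrast. Cyp1b1 at GD20 was -0.99. Calls over all probes fell too, to 10 higher and 8 lower, 11 and 23, and 3 and 1 in that order. In the main fit they were 24 and 17, 202 and 296, and 20 and 36. Nothing particular to the members is read from this loss of calls. With the controls of both GD20 studies pooled, 4 members were called with DBP500. With DBP100 at GD20, 0 were called when undetected probes stayed in and 0 when the fit held just those groups, where Cyp2r1 had an adjusted p of 0.0632 and 0.38. At PND5 with DBP500, 3 were called with undetected probes kept, 1 with just those groups fitted, 3 with a replicate block, and 0 within replicates 1 to 4 or within replicates 5 to 7. For DBP500 against DBP100 at PND5, 1 was called within replicates 1 to 4. On the authors' values 38 members differed between the GD20 control groups, where 318 of all probes were called higher and 7923 lower. On the same values Gsta4 lost its call at PND5 (limma adjusted p = 0.0728). Leaving out 1 array gave 0 to 2 with DBP100 at GD20, 2 to 5 with DBP500 at PND5, 0 to 1 with DBP100 at PND5 and 0 to 1 in the GD20 dose contrast. Of 3595 refits of single members 122 changed sign, 115 with both values uncalled and both intervals holding 0. The other 7 were Cyp4f6 for DBP500 against DBP100 within PND5 replicates 5 to 7 (0.43), Por with age (-0.35 with medians aligned, -0.11 on the authors' values) and, between the GD20 control groups on the authors' values, Gsto2 (-0.014), Cyp4b1 (-0.049), Gstm7 (-0.011) and Cyp4f5 (-0.28). The causes were not tested. Correlations of same-numbered arrays ran from -0.27 to 0.18, so no pairing by replicate number was seen. At PND5 the numbers did mark the 2 sets of arrays, replicates 1 to 4 and 5 to 7, and the main fit held no term for the set. The block changed no other count of DBP calls by over 1.5 times, and it could not be fitted between controls. Signals near background, as for Cyp2f4, Cyp2r1, Cyp1a1 and Cyp4a3, limit what can be told of those genes.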

Other observations

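Genes that supply or neighbour these enzymes also differed between PND5 and GD20 controls by limma. In this comparison 61.6% of all probes were called, 26.7% higher and 34.9% lower, and nothing particular to the lists is read from their counts. Of 13 other P450 genes 4 rose and 3 fell, with Cyp26b1, which clears retinoic acid, 1.23 higher and Cyp7b1, an oxysterol hydroxylase, 1.14 lower (-1.14). Cyp24a1, which inactivates vitamin D, was 1.01 higher. Of 15 genes for electron and haem supply 5 rose and 4 fell: Cyb5r2, a cytochrome b5 reductase, was 2.08 higher and the haem oxygenase Hmox1 1.70 higher, while Fech, which puts iron into haem, fell by 0.81. Both sulfate donor synthases rose, Papss1 by 0.51 and Papss2 by 0.56.

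Among 10 receptors Rxra rose by 1.73 and Nr1h3 fell by 1.10. In the Nrf2 pathway 5 of 14 genes rose and 5 fell, with the malic enzyme Me1 3.15 higher, Gclc of glutathione synthesis 1.03 higher and Gss, of the same synthesis, 0.81 lower (-0.81). Of the transporters, Abcc1 rose by 1.17 with age and Abcg2 fell by 1.27. The PPAR targets gave 9 rises and 3 falls of 19, Fabp4 of adipocytes being 2.70 higher beside the adipocyte markers, whose part was not tested.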
